A study of Brassica rapa with 30 samples.

Results

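The 3 copies of the floral integrator gene SOC1 in Brassica rapa, Bra004928, Bra000393 and Bra039324, were followed through cold treatment and return to warmth in an early- and a late-flowering cultivar. They were taken by their IDs, which the series record for this work names as the SOC1 copies, and are 3 of 42186 gene rows. All 3 passed the filter on low counts, which kept 28712 genes. Whole plants were raised in a greenhouse for 3 weeks and were harvested either with no cold (NV) or when cold had lasted 1 day (V1), 20 days (V20) or 40 days (V40). A last group (V40T10) had 10 days of warmth following its 40 days of cold. The cultivars were LP08, labelled early flowering, and Chiifu, labelled late flowering, with 3 libraries in each of the 10 groups and 30 in all. The title of the series links early flowering of oilseed-type plants to a premature stop codon in the transcript of BrFLC2, a flowering repressor gene. No genotype is given in the labels beyond the cultivar.

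In Arabidopsis thaliana, SOC1 encodes a MADS-box transcription factor that brings together signals from vernalization, day length, gibberellin and age. The repressor FLC binds and silences it before cold, the florigen FT and its partner FD raise it in the shoot tip, and SOC1 in turn helps to switch on genes of floral meristem identity such as LEAFY. Prolonged cold lowers FLC, which lifts that repression. Brassica genomes went through an additional triplication, so that genes held once in Arabidopsis are often kept in several copies.

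Each library held between 16926920 and 26595834 counts on genes. Levels are given as counts scaled to a common library size (CPM), and a count of 0 (3 counts on that scale) allows a level of up to 0.0958 to 0.209 CPM in a library, counting error only. Deviations of log2 CPM from the group mean had an SD across genes of 0.56 to 0.71 in the 3 Chiifu NV libraries and 0.19 to 0.38 in the other 27, so differences against Chiifu NV rest on the most variable group. Whether the 3 libraries of a group are different plants is not given in the labels, and p-values then measure only how far these libraries vary, which can be technical. Untreated plants of matching age were not among the samples, and the treatment cannot be told apart from the time that passed. In RNA of whole plants, a change in the number of cells that express a gene cannot be told apart from a change in RNA per cell. Levels of different copies are not compared with each other, since no gene lengths were at hand. Reads that align to near-identical copies were left out of the counts, and both cultivars were counted on the same gene rows. Whether either affects the SOC1 copies was not tested. The whole-plant label could not be checked against marker genes, because the IDs carry no names.

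The copies rose with cold in LP08, and 2 of them did so in Chiifu, where Bra000393 was called higher than at NV only after the return to warmth. With edgeR's quasi-likelihood test and an adjusted p below 0.05, in LP08 2 of the 3 copies were higher at V1 than at NV, where 20.8% of all genes tested were called higher. All 3 were higher in LP08 at V20 (20.1% of all genes), at V40 (17.4%) and at V40T10 (20.3%). In Chiifu, 2 copies were higher than at NV at V1 (22.3% of all genes), V20 (20.5%) and V40 (21.3%), and all 3 at V40T10 (19.8%). The median log2 change over all genes tested was between -0.08 and 0.02 in these 8 comparisons. Between 17.4% and 22.3% of all genes were thus called higher, against 2 or 3 of the 3 copies. In a fit to only the compared groups, neither Chiifu call at V1 was past the threshold. The edgeR adjusted p was 0.0654 for Bra004928 and 0.1 for Bra039324. That fit called 6690 genes in either direction there, against 14401 with all groups. The copies were chosen with earlier results of these data known.

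**Figure D1:**
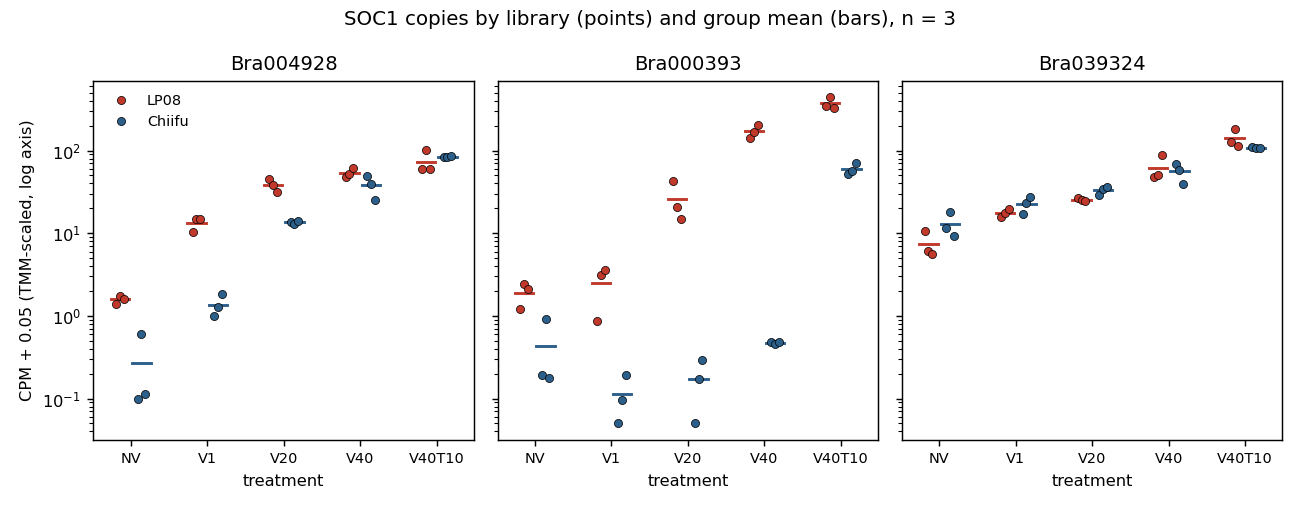
Levels of the SOC1 copies as TMM-scaled CPM + 0.05 on a log axis, over the 5 treatments in time order, with a point per library and a bar at the mean of 3 libraries, LP08 in red and Chiifu in blue. Bra000393 in Chiifu stays below 1 CPM from NV to V40 and stands at 52.4 to 70.6 CPM at V40T10, while in LP08 it is at 143 to 205 CPM by V40.

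Bra004928 climbed in both cultivars, and LP08 was ahead until V20. The 3 LP08 libraries had 1.36, 1.68 and 1.57 CPM at NV, 10.3, 14.7 and 14.8 CPM at V1, 45.5, 38.2 and 31.8 CPM at V20, 47.8, 51.6 and 61.3 CPM at V40, and 59.6, 101 and 59.9 CPM at V40T10. The LP08 groups did not overlap from NV to V40, whereas V40T10 overlapped V40 and held 1 library, replicate 2, far above the other two. In Chiifu the levels were 0.0478, 0.552 and 0.0638 CPM at NV, 0.95, 1.22 and 1.79 CPM at V1, 13.8, 12.9 and 14 CPM at V20, 48.7, 39.7 and 25.2 CPM at V40, and 83, 82.9 and 86.5 CPM at V40T10. No 2 Chiifu groups overlapped, but NV replicate 2, with 12 counts, lay above the other NV libraries, with 1 count each.

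At V1 Bra004928 was already 8.6-fold above NV in LP08 (log2 change 3.10, SE 0.32, edgeR adjusted p 2.97e-08). In Chiifu it was 5.42-fold above NV (2.44, SE 0.50, edgeR adjusted p 0.000254). In a fit to only the compared groups (compared groups alone), the Chiifu change at V1 was no longer past the threshold, with an edgeR adjusted p of 0.0654. At V20 it was 25-fold above NV in LP08 (log2 4.64, SE 0.33, edgeR adjusted p 5.44e-11) and 55.7-fold in Chiifu (5.80, SE 0.42, edgeR adjusted p 6.74e-11). At V40 it was 34.7-fold above NV in LP08 (log2 5.12, SE 0.33) and 155-fold in Chiifu (7.28, SE 0.41), with edgeR adjusted p-values of 1.77e-11 and 7.25e-13. At V40T10 these were 47.7-fold (log2 5.58, SE 0.34, edgeR adjusted p 2.26e-11) and 346-fold (8.43, SE 0.42, edgeR adjusted p 4.44e-13), and the Chiifu change was the 17th from the top among 28712 genes. Chiifu folds against NV rest on few NV counts. Without Chiifu NV replicate 2 the log2 changes in Chiifu were 4.45 at V1, 7.81 at V20, 9.29 at V40 and 10.44 at V40T10.

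Step by step, Bra004928 in LP08 rose between NV and V1 and between V1 and V20 (log2 1.54, SE 0.27, edgeR adjusted p 8.45e-05). Its LP08 means of 38.5 ± 6.84 CPM at V20, 53.6 ± 6.97 at V40 and 73.6 ± 24 at V40T10 (SD, n = 3 each) were not separated between neighbours, with edgeR adjusted p-values of 0.457 and 0.148. In Chiifu every step was called. The change was 3.36 on the log2 scale between V1 and V20 (edgeR adjusted p 2.69e-08), 1.48 between V20 and V40 (edgeR adjusted p 0.00965) and 1.15 between V40 and V40T10 (edgeR adjusted p 0.000803). The step between V20 and V40 was called for few genes in this fit, 0.157% higher in Chiifu and 1.12% higher in LP08. Genes called in either direction depended on the fit. In Chiifu they were 75 here, 1204 with the compared groups alone and 363 with DESeq2. In LP08 they were 588, 358 and 1086. For Bra004928 in Chiifu the adjusted p of this step rose to between 0.0576 and 0.103 when Chiifu V20 replicate 1, 2 or 3 or Chiifu V40 replicate 1 was left out in turn. At that step 1 copy was called in Chiifu and 2 in LP08.

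Bra000393 showed the widest separation of the cultivars. The LP08 libraries had 1.15, 2.36 and 2.06 CPM at NV, 0.826, 3.03 and 3.52 CPM at V1, 42.3, 20.5 and 15 CPM at V20, 143, 169 and 205 CPM at V40, and 347, 441 and 331 CPM at V40T10. NV and V1 overlapped, and each later LP08 group lay above the one before it in all libraries. In Chiifu the levels were 0.144, 0.875 and 0.128 CPM at NV, 0, 0.0453 and 0.145 CPM at V1, 0, 0.122 and 0.24 CPM at V20, 0.43, 0.404 and 0.432 CPM at V40, and 52.4, 56.4 and 70.6 CPM at V40T10. These are 24 counts in all at NV, 4 at V1, 10 at V20 and 30 at V40 over the 3 libraries of each group, against 4770 at V40T10. Up to V40 every Chiifu library was below 1 CPM, and after warmth all 3 were far above that level.

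The rise of Bra000393 in LP08 was not called at V1 (log2 0.42, SE 0.47, edgeR adjusted p 0.510). It was 13.9-fold at V20 (log2 3.80, SE 0.45, edgeR adjusted p 2.59e-07), 92.2-fold at V40 (6.53, SE 0.49, edgeR adjusted p 2.11e-10) and 200-fold at V40T10 (7.64, SE 0.51, edgeR adjusted p 9.25e-11). Its LP08 change stood 338th from the top of all genes at V20, 58th at V40 and 21st at V40T10. In Chiifu its log2 change against NV was -2.61 at V1 (SE 1.10, edgeR adjusted p 0.0504), -1.55 at V20 (SE 0.91, edgeR adjusted p 0.169) and 0.06 at V40 (SE 0.74, edgeR adjusted p 0.970), none of them called. DESeq2 called it lower at V1 and V20, with adjusted p-values of 0.00627 and 0.046, and edgeR with RLE size factors called it at V1, with 0.0492. Within the cold, Bra000393 in Chiifu was called higher at V40 than at V1 (30 against 4 counts, log2 2.66, SE 1.06, edgeR adjusted p 0.0487), with both groups below 1 CPM. That call was lost when Chiifu V1 replicate 1 or 2 or Chiifu V40 replicate 1, 2 or 3 was left out (edgeR adjusted p 0.0766 to 0.155), and the log2 change was 3.91 without Chiifu V1 replicate 3. With no filter on low counts the edgeR adjusted p was 0.0518. All 3 copies were called higher at V40 than at V1 in LP08 (18.9% of all genes) and in Chiifu (20.4%). The changes against NV rest on Chiifu NV replicate 2, which held 19 of the 24 NV counts.

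After warmth Bra000393 in Chiifu was 145-fold above NV (log2 7.18, SE 0.55, edgeR adjusted p 6.39e-10), and the log2 change was 8.71 without Chiifu NV replicate 2. Against V40 it was 140-fold higher (log2 7.13, SE 0.54, edgeR adjusted p 1.51e-10). In LP08 the same step was 2.17-fold (log2 1.12, SE 0.37, edgeR adjusted p 0.014), and its adjusted p was 0.0608 without LP08 V40 replicate 1 and 0.0537 without LP08 V40T10 replicate 2. On the log2 scale the LP08 steps in the cold were larger, with 3.38 between V1 and V20 (SE 0.43, edgeR adjusted p 1.69e-06) and 2.73 between V20 and V40 (SE 0.39, edgeR adjusted p 0.000569).

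Bra039324 had the smallest fold changes of the copies at V40 and V40T10 against NV in LP08, and it was at 5 CPM or more in every library of both cultivars. The LP08 libraries had 10.5, 5.99 and 5.55 CPM at NV, 15.5, 17.4 and 19.5 CPM at V1, 26.7, 25.5 and 24.4 CPM at V20, 48.2, 51 and 87.7 CPM at V40, and 127, 183 and 115 CPM at V40T10. In Chiifu they were 11.6, 17.9 and 9.25 CPM at NV, 17, 23.3 and 27.3 CPM at V1, 29.3, 34.5 and 36.7 CPM at V20, 69.5, 59 and 39 CPM at V40, and 109, 107 and 108 CPM at V40T10. Neighbouring groups did not overlap in either cultivar, except NV and V1 in Chiifu.

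Against NV, Bra039324 was 2.38-fold higher at V1 in LP08 (log2 1.25, SE 0.28, edgeR adjusted p 0.000752) and 1.74-fold in Chiifu (0.80, SE 0.27, edgeR adjusted p 0.0161). The Chiifu call at V1 was lost when Chiifu NV replicate 1, Chiifu NV replicate 3 or Chiifu V1 replicate 3 was left out, with edgeR adjusted p-values of 0.0519, 0.0833 and 0.0819, and with the compared groups alone (0.1). At V20 it was 3.47-fold higher in LP08 (log2 1.80, SE 0.28, edgeR adjusted p 1.3e-05) and 2.59-fold in Chiifu (1.37, SE 0.27, edgeR adjusted p 0.000223). At V40 it was 8.48-fold higher in LP08 (log2 3.08, SE 0.29, edgeR adjusted p 1.03e-08) and 4.31-fold in Chiifu (2.11, SE 0.27, edgeR adjusted p 1.12e-06). At V40T10 it reached 19.3-fold in LP08 (log2 4.27, SE 0.30, edgeR adjusted p 1.92e-10) and 8.35-fold in Chiifu (3.06, SE 0.28, edgeR adjusted p 1.29e-08).

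Of the neighbours in its order of levels, V1 and V20 were not separated in LP08 (17.4 ± 2.03 and 25.5 ± 1.16 CPM, SD, n = 3 each; edgeR adjusted p 0.117). With the compared groups alone that adjusted p was 0.00628. V20 and V40 differed in LP08 (log2 1.29, SE 0.27, edgeR adjusted p 0.00936), a call lost without LP08 V20 replicate 2 (0.0512) or LP08 V40 replicate 3 (0.0928). In Chiifu neither V1 and V20 (edgeR adjusted p 0.0973, and 0.0182 with the compared groups alone) nor V20 and V40 (edgeR adjusted p 0.298) were separated, so its rise there was called over longer spans. Bra039324 rose 2.27-fold between V40 and V40T10 in LP08 (edgeR adjusted p 0.000562) and 1.94-fold in Chiifu (edgeR adjusted p 0.00408). For V40T10 against V40, 2 copies were called higher in LP08, where 24.6% of all genes were, and 3 in Chiifu, where 24.2% were. Between V1 and V20, 2 copies were called higher in LP08 (16.8% of all genes) and 1 in Chiifu (17.5%).

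**Figure D2:**
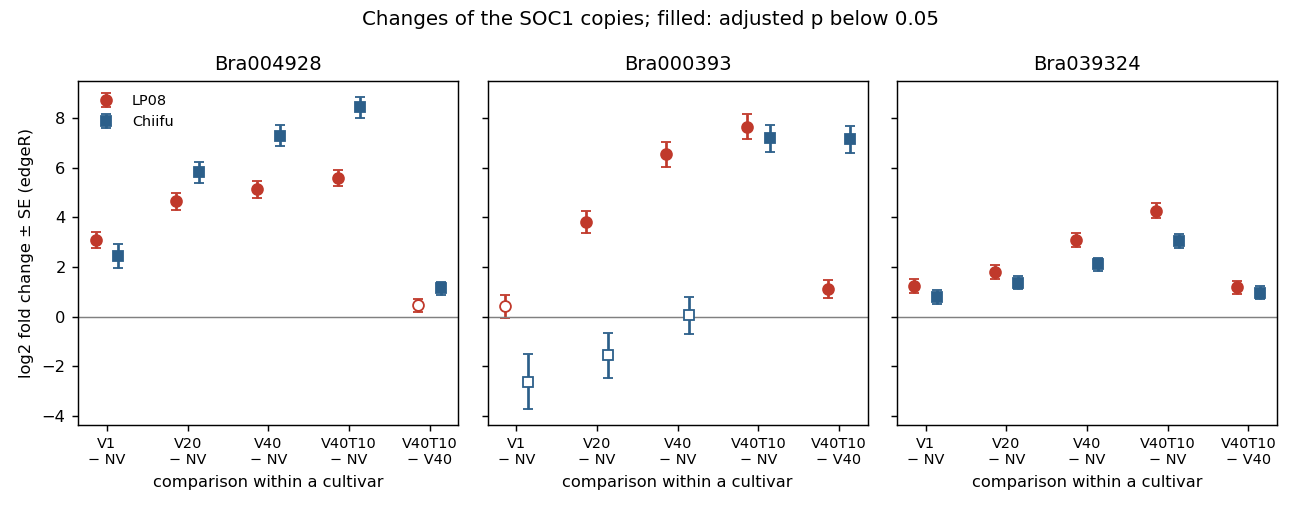
Log2 fold changes of each SOC1 copy within a cultivar, with standard errors from the edgeR fit, for V1, V20, V40 and V40T10 against NV and for V40T10 against V40. Circles are LP08 and squares Chiifu, filled where the adjusted p was below 0.05. For Bra000393 the 3 cold treatments in Chiifu are open and the change with warmth is 7.13, whereas in LP08 the change reaches 6.53 at V40.

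The cultivars were also compared at each treatment. Before cold, Bra004928 and Bra000393 were higher in LP08 than in Chiifu, by 6.33-fold and 4.54-fold (log2 2.66, SE 0.49, edgeR adjusted p 9.87e-05 for the first copy; log2 2.18, SE 0.61, edgeR adjusted p 0.005 for the second). Bra039324 was lower in LP08 (log2 -0.82, SE 0.28, edgeR adjusted p 0.0187). Of all genes, 20.8% were called higher and 24.3% lower in LP08 at NV. The Bra000393 and Bra039324 differences were not called with the compared groups alone (edgeR adjusted p 0.0743 and 0.155). The Bra039324 call was also lost when Chiifu NV replicate 2 (0.155), LP08 NV replicate 2 (0.0835) or LP08 NV replicate 3 (0.0978) was left out. Without Chiifu NV replicate 2 the log2 differences of Bra004928 and Bra000393 were 4.67 and 3.71.

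The lead of LP08 in Bra004928 was 10.1-fold at V1 (log2 3.33, SE 0.32, edgeR adjusted p 6.13e-09) and 2.84-fold at V20 (1.51, SE 0.27, edgeR adjusted p 5.82e-05). At V40 the LP08 mean was 53.6 ± 6.97 CPM against 37.9 ± 11.9 CPM for Chiifu. At V40T10 the LP08 mean was 73.6 ± 24 CPM against 84.2 ± 2.05 CPM for Chiifu (SD, n = 3 each). Neither difference was called, with edgeR adjusted p-values of 0.125 and 0.537. The lead in Bra000393 was 36.9-fold at V1, 185-fold at V20 and 402-fold at V40, with log2 differences of 5.21 (SE 0.81), 7.53 (SE 0.61) and 8.65 (SE 0.56). Their edgeR adjusted p-values were 9.63e-06, 2.38e-10 and 3.57e-12. The V1 and V20 values rest on 4 and 10 Chiifu counts, and were 6.45 without Chiifu V1 replicate 3 and 8.47 without Chiifu V20 replicate 3. After warmth the difference narrowed to 6.24-fold (log2 2.64, SE 0.39, edgeR adjusted p 2.44e-06), with mean levels of 373 ± 59.4 CPM for LP08 and 59.8 ± 9.58 CPM for Chiifu (SD over 3 libraries). For Bra039324 no difference was called at V1, V20, V40 or V40T10, with log2 values between -0.39 and 0.39, though at V20 all LP08 libraries lay below all Chiifu libraries and the edgeR adjusted p was 0.013 with the compared groups alone. Higher in LP08 were 2 copies at V1 and V20 (21.7% and 19.9% of all genes) and 1 at V40 and V40T10 (20.1% and 26.9%).

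Whether the cultivars responded differently was tested with an interaction term, the LP08 response minus the Chiifu response. For Bra000393 it was 5.35 on the log2 scale at V20 against NV (SE 1.02, edgeR adjusted p 0.00127) and 6.47 at V40 (SE 0.96, edgeR adjusted p 9.3e-05). Without Chiifu NV replicate 2 these were 3.82 (edgeR adjusted p 0.117) and 4.94 (0.0433). At V40T10 the responses against NV were 200-fold in LP08 and 145-fold in Chiifu, a difference of 0.46 (SE 0.78, edgeR adjusted p 0.718), and the response to warmth after V40 was smaller in LP08 by a log2 difference of -6.01 (SE 0.64, edgeR adjusted p 1.7e-07). At V1 its interaction of 3.03 (SE 1.19) was not called by edgeR (adjusted p 0.115) and was called by DESeq2 (0.0228).

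Bra004928 differed in the other direction, with a smaller response in LP08 at V40 (log2 difference -2.16, SE 0.57, edgeR adjusted p 0.014) and at V40T10 (-2.86, SE 0.56, edgeR adjusted p 0.000523), where its level before cold was higher in LP08. These were -4.17 and -4.86 without Chiifu NV replicate 2. At V20 the interaction of Bra004928 was not called (-1.16, SE 0.58, edgeR adjusted p 0.218), but was without Chiifu NV replicate 2 (-3.16, edgeR adjusted p 0.0122). The V40 interaction was not called without Chiifu NV replicate 3 (edgeR adjusted p 0.0508) or with the compared groups alone (0.0941). For Bra039324 the response at V40T10 was larger in LP08 (1.21, SE 0.38, edgeR adjusted p 0.0197). That call was lost without Chiifu NV replicate 2, LP08 NV replicate 2 or 3, or LP08 V40T10 replicate 2 (edgeR adjusted p 0.0581 to 0.0715), and with the compared groups alone (0.0669). At V40 the Bra039324 interaction was not called (0.98, SE 0.38, edgeR adjusted p 0.0934). It was called without Chiifu NV replicate 3 (0.0418) or LP08 NV replicate 1 (0.0291). Interactions were called higher in LP08 for 1 copy at V20 (5.61% of all genes), at V40 (6.63%) and at V40T10 (13.4%). They were called lower for 1 copy at V40 (5.64%), at V40T10 (13.8%) and for warmth after V40 (16.2%).

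Because the copies were counted in the same libraries, their ratio can be followed between libraries without gene lengths, as log2 of the ratio of CPM + 0.5. Where a copy is below 0.5 CPM, as Bra000393 was in Chiifu at V1, V20 and V40, the size of the ratio depends on that added value. Over the 5 treatments, the ratio of Bra000393 to Bra039324 was higher in LP08 than in Chiifu by 4.04 on the log2 scale, in the same direction in 5 of 5 treatments and with no overlap in any. A two-sided permutation test of cultivar within treatment gave the smallest p its 100000 resamples allow, 1e-05, or 0.00012 after Benjamini-Hochberg adjustment over 12 ratio tests. For Bra000393 to Bra004928 the difference was 2.59 in favour of LP08 (adjusted permutation p 0.001), with 3.84 at V20, 6.99 at V40 and 2.87 at V40T10. At NV and V1 its sign depended on the pseudocount, and Bra000393 had 24 and 4 Chiifu counts there. At V1 it was -0.68 with 0.5 CPM and 0.59 with 0.1 CPM added, and at NV it was -0.08 with 0.5 CPM and 0.02 with 2 CPM added. The ratio of Bra004928 to Bra039324 was 1.45 higher in LP08 (4 of 5 treatments, adjusted permutation p 0.001), with 2.34 at NV, 3.26 at V1, 1.84 at V20, 0.40 at V40 and -0.60 at V40T10.

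Between treatments the ratios were compared over both cultivars by an exact two-sided permutation test of 400 arrangements, whose smallest p is 0.005. Bra004928 rose more than Bra039324 between NV and V40, by 1.73 in LP08 and 3.67 in Chiifu (mean 2.70, adjusted exact permutation p 0.00857). The Chiifu value was 5.07 with 0.1 CPM and 2.17 with 2 CPM added, and the LP08 value 1.96 and 1.20. By V40T10 Bra004928 had outgained Bra039324 by 0.94 in LP08 and 3.87 in Chiifu, and Bra000393 had outgained Bra039324 by 3.13 in LP08 and 3.11 in Chiifu (adjusted exact permutation p 0.00857 for each mean over the cultivars). Which cultivar had the larger gain of Bra000393 on Bra039324 depended on the pseudocount. That gain was 3.34 in LP08 and 4.18 in Chiifu with 0.1 CPM added, and 2.65 and 1.77 with 2 CPM. Between V40 and V40T10 Bra000393 gained on Bra004928 by 0.70 in LP08 and 4.83 in Chiifu (adjusted exact permutation p 0.00857). The other ratio changes went in opposite directions in the cultivars, as for Bra000393 to Bra004928 between NV and V40, with 1.49 in LP08 and -5.59 in Chiifu, and none of these means was past the threshold. Adding 0.1 or 2 CPM in place of 0.5 changed no call, but moved the means of Bra004928 to Bra039324 to 3.52 or 1.68 at V40 and to 3.22 or 1.39 at V40T10 against NV, and that of Bra000393 to Bra039324 at V40T10 against NV to 3.76 or 2.21. With 2 CPM the gain of Bra000393 on Bra004928 between V40 and V40T10 was 2.10, against a mean of 2.77 with 0.5 CPM.

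**Figure D3:**
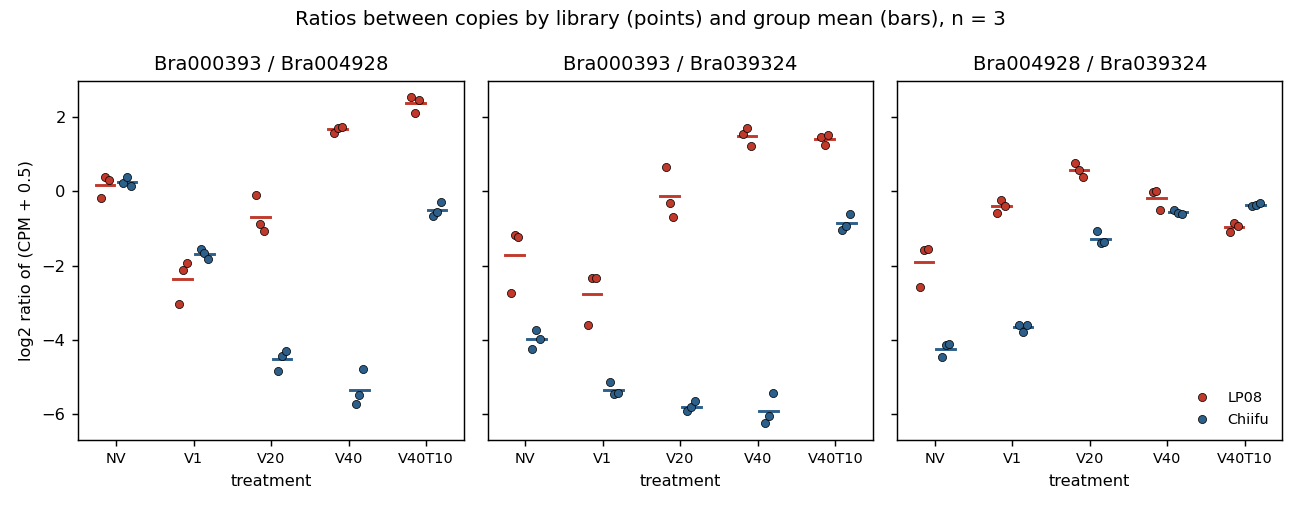
Log2 ratio of CPM + 0.5 between each pair of copies, over the 5 treatments, with a point per library and a bar at the mean of 3 libraries, LP08 in red and Chiifu in blue. The height of a panel depends on gene length, so points are compared within a panel only. At V40 the ratio of Bra000393 to Bra004928 is 1.67 in LP08 and -5.33 in Chiifu on average.

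The genes whose course over the 10 group means of log2 CPM was most like each copy were sought among 18080 genes with at least 5 CPM on average, and neither the deposited tables nor the gene table used here gives names for them. Bra000393 ran closest to Bra030771 (Pearson r 0.982 over 10 group means) and Bra022475 (0.981). Bra022475 averaged 0.504, 0.273, 2.43, 14.6 and 36.3 CPM in LP08 over NV, V1, V20, V40 and V40T10, and 0.0213, 0, 0, 0.0143 and 1.97 CPM in Chiifu. Like Bra000393 it was near 0 in Chiifu until the return to warmth. Bra030771 was not, with 4.2, 3.91, 3.96 and 10.7 CPM in Chiifu over NV, V1, V20 and V40, and 123 CPM at V40T10. For Bra004928 the closest genes were Bra021386 (0.969) and Bra023541 (0.961), and for Bra039324 Bra036244 (0.958) and Bra020894 (0.946). Between the copies, r was 0.809 for Bra004928 and Bra039324, 0.696 for Bra004928 and Bra000393, and 0.633 for Bra000393 and Bra039324. The closest genes were picked as the highest of 18080, so lower values between the copies do not show how far the copies diverge. The group means share libraries and treatments, so these values are a description.

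The series record for this work pairs 2 other flowering genes with IDs, Bra020445 as a copy of VIN3, which in Arabidopsis is induced by prolonged cold and takes part in silencing FLC, and Bra024536 as a GIGANTEA gene, a clock-linked gene of the day-length pathway. Bra020445 had 0 counts in all 3 LP08 libraries at NV, and then 0.514 ± 0.271, 12.7 ± 1.82, 17.6 ± 6.71 and 0.661 ± 0.0907 CPM at V1, V20, V40 and V40T10 (SD, n = 3 each). In Chiifu it was at 7.29 ± 1.32, 9.59 ± 0.409, 18.4 ± 3.12, 25.7 ± 4.1 and 6.52 ± 1.11 CPM over the 5 treatments. At NV it was at least 145-fold lower in LP08 than in Chiifu, with the LP08 limit of 3 counts over the group. It was thus high in late cold and lower again after warmth in both cultivars. In LP08 it was still at least 12.7-fold above NV at V40T10, with the same limit. In Chiifu V40T10 was not separated from NV (edgeR adjusted p 0.612). No SOC1 copy was called lower at V40T10 than at V40, a step where 25.1% of all genes were called lower in LP08 and 22.4% in Chiifu. At V40 Bra020445 was at least 348-fold above NV in LP08, with the limit of 3 counts over the LP08 NV libraries. In Chiifu it was 3.51-fold above NV (edgeR adjusted p 1.51e-06). Between V40 and V40T10 its log2 change was -4.74 in LP08 (SE 0.30, edgeR adjusted p 4.53e-11) and -1.97 in Chiifu (SE 0.23, edgeR adjusted p 3.83e-07).

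Bra024536 was higher than at NV from the first day of cold, by 2.23-fold in LP08 (edgeR adjusted p 0.00364) and 4.56-fold in Chiifu (edgeR adjusted p 3.38e-06). The 3 Chiifu NV libraries spread widely, with 80.3, 50.2 and 14 CPM. With each library left out, the Chiifu log2 change at V1 lay between 1.76 and 2.77. Means of Bra024536 over NV, V1, V20, V40 and V40T10 were 90, 201, 276, 224 and 59.8 CPM in LP08 and 48.2, 220, 223, 283 and 44.1 CPM in Chiifu. With warmth it fell by 1.91 on the log2 scale in LP08 (SE 0.31, edgeR adjusted p 1.91e-05) and fell by 2.68 in Chiifu (SE 0.32, edgeR adjusted p 2.94e-07), to levels not separated from NV (edgeR adjusted p 0.123 in LP08 and 0.767 in Chiifu). With the compared groups alone the LP08 value was 0.00226, and without Chiifu NV replicate 3 the Chiifu value was 0.0111. Both listed genes, 2 of 2, were called higher than NV at V20 and V40 in both cultivars. Of all genes, 20.1% and 17.4% were called higher there in LP08, and 20.5% and 21.3% in Chiifu. Both listed genes fell with warmth, where 25.1% of all genes were called lower in LP08 and 22.4% in Chiifu.

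**Figure D4:**
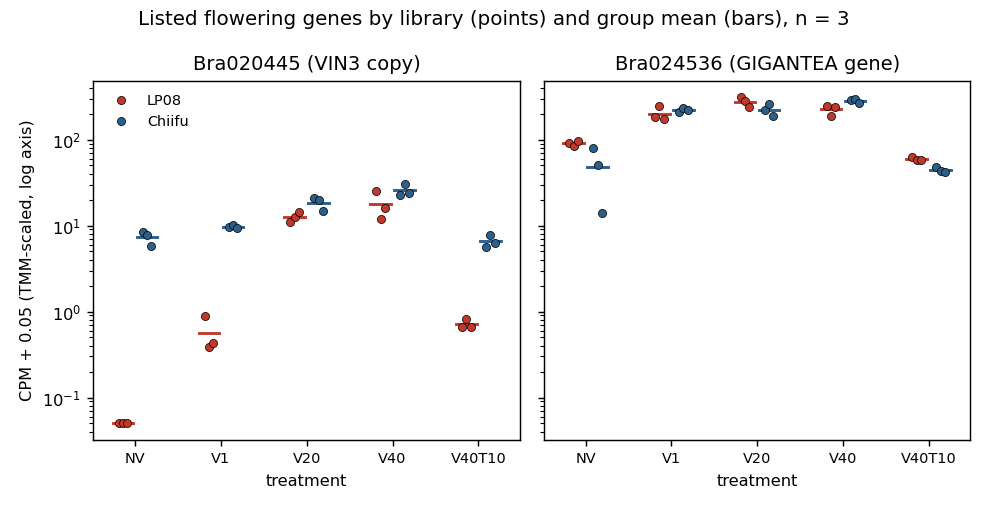
Levels of Bra020445 and Bra024536 as TMM-scaled CPM + 0.05 on a log axis, over the 5 treatments in time order, with a point per library and a bar at the mean of 3 libraries, LP08 in red and Chiifu in blue. Both genes are lower at V40T10 than at V40 in all libraries, and the 3 LP08 NV libraries of Bra020445 are at 0 CPM.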

How the data were processed

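Total RNA of whole plants was turned into stranded mRNA libraries and read on a NovaSeq instrument, per the labels' protocols. HTSeq, TopHat2, FastQC and edgeR appear in the submitters' processing notes with no version. Genome build, annotation and strand setting: not given in the sources used here. Raw counts of reads per gene were deposited by the authors, 42186 gene rows and 5 summary rows per library. The summary rows were left out; reads on no gene were 6.91 to 11.6% and reads aligned to several places 2.67 to 7.29% of the alignments counted.

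Counts of all 30 libraries were fitted with edgeR 4.0.16 in R 4.3.3 (quasi-likelihood F test, TMM factors, filterByExpr, 1 mean per group). P-values were adjusted by Benjamini-Hochberg over the 28712 genes tested, and a gene was called below 0.05. CPM values are on the TMM-scaled library size, with a prior count of 2 on the log2 scale. Fitted fold changes of genes with few counts depend on the fit. Alternatives were RLE size factors, no filter, DESeq2 1.42.0, the compared groups alone, a replicate block, and each library left out; for ratios, pseudocounts of 0.1 and 2 CPM. The fit and the ratio test were tested on simulated data. The members, the lists and the rules for named genes (the 3 copies, 2 listed genes, and the 2 genes most like each copy) were chosen with earlier results of these data known. The members' IDs were not matched in the RefSeq gene table (assembly CAAS_Brap_v3.01). No library duplicated another of its group, with a chi-square per degree of freedom of 6.21 or more.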

Additional observations from a re-analysis of the deposited data

Results flagged for a closer look

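Differences between the cultivars' responses, tested as an interaction term, drew attention to 6 results of the SOC1 copies and 1 of a listed gene. Of all genes, interactions against NV were called in either direction for 9.22% at V1, 10.3% at V20, 12.3% at V40 and 27.2% at V40T10. For V40T10 against V40 they were called for 30.4%. Bra000393 had the larger log2 response in LP08 at V20 (5.35) and V40 (6.47) against NV, and the smaller one between V40 and V40T10 (-6.01). Bra004928 had the smaller response in LP08 at V40 (-2.16) and V40T10 (-2.86), and Bra039324 the larger one at V40T10 (1.21). Bra020445 fell more in LP08 between V40 and V40T10 (-2.77, SE 0.38, edgeR adjusted p 7.08e-06). All but the changes between V40 and V40T10 use the Chiifu NV libraries, which varied most, and the part of that spread in these results was not tested beyond leaving out each library. The interactions of Bra020445 against NV were also called at V1, V20, V40 and V40T10 (edgeR adjusted p 0.00111, 2.91e-08, 2.32e-08 and 3.17e-05). They are not among the flagged results, because LP08 NV had 0 counts and no fitted fold is given there.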

How the results depend on the processing

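RLE size factors kept 77 of 78 results of the SOC1 copies, the absence of a filter 77, DESeq2 75 and the compared groups alone 69, and all 12 ratio tests kept their call under 3 other settings and when a library was left out. Without the filter Bra000393 in Chiifu at V40 against V1 was no longer past the threshold (2.66). At V1 against NV it passed the threshold with RLE (-2.62) and DESeq2 (-2.69), as did V20 against NV (-1.62) and the V1 interaction (3.10) with DESeq2. With the compared groups alone, Bra039324 passed it in LP08 (0.55) and Chiifu (0.58) at V20 against V1 and between cultivars at V20 (-0.39). Past it no longer were Bra004928 (2.48) and Bra039324 (0.80) in Chiifu at V1 against NV, Bra000393 (2.22) and Bra039324 (-0.81) between cultivars at NV, and the interactions of Bra004928 at V40 (-2.17) and Bra039324 at V40T10 (1.21). Among the ratios, pseudocounts of 0.1 and 2 CPM gave cultivar differences of 3.26 and 1.92 for the ratio of Bra000393 to Bra004928, and of 5.02 and 2.99 for that to Bra039324; the treatment ratios that moved are given beside their values.

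Leaving out each library in turn kept 519 of 558 results, with 25 calls lost, 8 gained and 6 signs turned. Log2 changes of Bra000393 in Chiifu then lay between -3.85 and -1.08 at V1 and between -0.37 and 1.59 at V40 against NV, between 2.11 and 3.91 at V40 against V1, and between 0.98 and 1.26 in LP08 for V40T10 against V40. Those of Bra039324 lay between 0.61 and 1.11 in Chiifu at V1 against NV, 0.96 and 1.44 in LP08 for V40 against V20, and, between cultivars, -1.17 and -0.51 at NV and -0.17 and 0.35 at V40. Bra004928 in Chiifu for V40 against V20 lay between 1.26 and 1.70. Interactions against NV ranged for Bra004928 between -1.34 and 1.18 at V1, -3.16 and -0.64 at V20, and -4.17 and -1.65 at V40. For Bra000393 they ranged between 1.5 and 4.27 at V1, 3.82 and 6.29 at V20, and -1.07 and 0.89 at V40T10, and for Bra039324 between 0.65 and 1.33 at V40 and 0.90 and 1.56 at V40T10. For V40T10 against V40 that of Bra004928 ranged between -0.99 and -0.47. Of the listed genes, Bra024536 in Chiifu lay between -0.56 and 0.45 at V40T10 against NV and between -0.10 and 0.13 at V20 against V1. The cause of these shifts was not tested.

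Same-numbered libraries did not deviate together (median r -0.014, against 0.00071 for other numbers, and 5 of 30 libraries correlated best with their own number), and the main fit did not pair them. A small effect shared by same-numbered libraries could go unseen by this measure. With the replicate block, 77 of 78 results of the copies kept their call, with 6.46 for the Bra000393 interaction at V40. The exception was Bra000393 in Chiifu at V40 against V1 (2.67, edgeR adjusted p 0.0535).

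Counts of genes called moved by over 1.5 times in 11 of 26 comparisons with the compared groups alone and in 2 with DESeq2. With the compared groups alone they were 6690 for Chiifu V1 against NV (14401 with all groups), 4929 for V20 (12690), 5198 for V40 (13166), 4245 for V40T10 (11801) and 5434 for LP08 against Chiifu at NV (12932). For the interactions they were 598 at V1 (2646), 830 at V20 (2962), 1084 at V40 (3522) and 4360 at V40T10 (7819). For V40 against V20 they were 358 in LP08 (588) and 1204 in Chiifu (75), while DESeq2 gave 1086 in LP08 and 363 in Chiifu. Leaving out a library gave 209 to 389 for that step in LP08 and 29 to 46 in Chiifu where the count moved most, and up to 5189, 5261 and 5900 for the V1, V20 and V40 interactions without Chiifu NV replicate 1, and 1930 for V20 without Chiifu V20 replicate 2. Bra000393 in Chiifu at V1 and V20 is at the limit of this depth. In Chiifu NV replicates 1 and 3, Bra004928 (1 count each) and Bra000393 (3 and 2 counts) are at that limit too.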
